A study of Mus musculus with 12 samples.

Results

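The data described here are the spleen arrays of Sirt6 knockout mice at 29 days of age, 2 of the 12 arrays of the series. They were chosen by their labels, as the arrays whose knockout channel held RNA of 29-day spleen. On each array the knockout spleen RNA was labelled with Cy5 and the wild type RNA, from spleen of the same age, with Cy3. Dyes were not swapped on any array, so dye bias of a probe is part of its ratio. The labels do not say how many wild type mice gave the 29-day RNA, or that the arrays held separate knockout animals, so p-values measure the spread between arrays, which may be technical. The arrays used for comparison carried knockout and wild type liver, skin or thymus of 29 days (2 arrays each) and spleen of 21 days (2 arrays, wild type RNA pooled from 3 littermates).

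Sirt6 is a sirtuin, an enzyme that uses NAD to remove acyl groups from histones at promoters and takes part in DNA repair and in the control of glucose and lipid metabolism. Mice without it stay small, lose fat and lymphocytes, have low blood glucose and die young. The spleen filters blood and recycles red cells in its red pulp and holds B and T lymphocytes in its white pulp, and in young mice it also makes red cells, granulocytes and platelets.

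All values below are knockout over wild type on the log2 scale, after each array was centred on its median, so a value below 0 means less RNA in the knockout sample. In bulk tissue, fewer cells of a type and less RNA per cell cannot be told apart. The table holds ratios and no signal of either dye, so the presence of spleen markers could not be read as a level, and dim spots could not be removed. Replicate 2 was the wider array, with a standard deviation over probes of 0.66 against 0.33 on replicate 1. Over 38278 probes the arrays had a Pearson correlation of -0.28 and a Spearman correlation of -0.31, as a description across probes that share arrays. The labels state the dyes for both arrays, so the direction was kept. The direction of each ratio rests on those labels, and turning the sign of replicate 2 would exchange the genes described as the same on both arrays with those described as opposite.

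**Figure D1:**
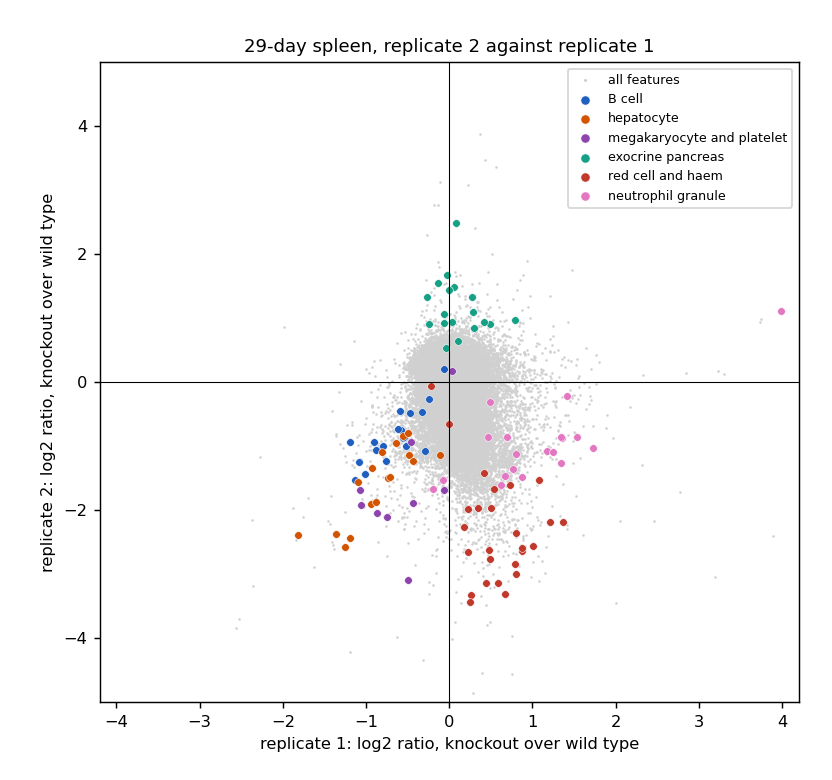
Each point is a gene or unnamed probe, with its log2 ratio (knockout over wild type) on replicate 1 on the horizontal axis and on replicate 2 on the vertical axis; coloured points are members of 6 gene lists, and 7 features lie beyond the axes. Hepatocyte, B cell and platelet genes lie mostly at lower left, red cell genes at lower right with replicate 2 values down to -3.44, and pancreas genes near 0 on replicate 1 and above 0 on replicate 2.

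Genes that most cells express at a high level split the arrays. The median of 73 cytosolic ribosomal protein genes was 0.37 on replicate 1 and -0.94 on replicate 2, and that of 73 respiratory chain genes was 0.26 and -1.21. Because of this split the position of some genes and lists against 0 is also given with both arrays centred on the 146 genes of these lists, here called the ribosomal centring. That centring moved the median of the 14628 named genes tested from 0.02 to -0.30 on replicate 1 and from -0.16 to 0.89 on replicate 2. The ribosomal centring adds 1 constant to all genes of an array, so it can move a value across 0 but leaves the distance of a list from the median of all named genes as it was.

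The targeted gene did not read lower. Sirt6 stood at 0.20 on replicate 1 and at 0.14 on replicate 2, with a mean of 0.17 (SE 0.39, limma adjusted p = 0.9996). Its 2 probes gave -0.14 and 0.55 on replicate 1 and 0.18 and 0.10 on replicate 2. On the arrays used for comparison Sirt6 was below 0, at -0.86 and -0.52 in thymus, -0.16 and -0.30 in liver and -0.21 and -0.06 in skin. In 21-day spleen it was at -2.29 and -0.07, and the difference between the ages missed the threshold (limma adjusted p = 0.419). Where these probes lie relative to the deleted part of the gene was not analysed here, so the value does not check the labels. Of the other sirtuins, Sirt1 stood at -0.06 and -0.35, Sirt2 at 0.26 and -1.00, Sirt3 at 0.20 and -0.60, and Sirt5 at 0.16 and -0.59 on replicates 1 and 2.

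No gene passed the test in 29-day spleen. Limma called 0 of 30783 features at an adjusted p of 0.05 (0.0 percent), while 736 (2.39 percent) were lower and 279 (0.906 percent) higher at an unadjusted p of 0.05. The lowest adjusted p was 0.0512, for a probe with no gene name that stood at -2.36 and -3.19. Without replicate 1 the lone replicate 2, assumed to vary like the other groups, gave 316 calls, 307 of them lower, and without replicate 2 there were 0. Because no call was made on both arrays, the genes below are described by their values on both arrays and by a fold of 1.5, or 0.58 on the log2 scale. Past that fold on both arrays were 61 features higher (0.198 percent), 197 lower (0.64 percent), 726 above 0 on replicate 1 and below 0 on replicate 2 (2.36 percent) and 3 the other way round (0.00975 percent). Among named genes these were 18 higher (0.123 percent), 109 lower (0.745 percent) and 265 above and then below 0 (1.81 percent).

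B lymphocyte genes lay below 0 on both arrays. Of the 19 measured genes of the B cell list, 18 were below 0 on both, against 20.5 percent of all named genes. The list's median was -0.60 on replicate 1 and -0.93 on replicate 2, 10 members were lower past 1.5-fold on both arrays, and 12 had an unadjusted limma p under 0.05. Pax5, the transcription factor that fixes B cell identity, was the exception at -0.06 and 0.21.

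Genes of the B cell receptor and its signalling stood among the lower members. Cd79b, a signalling chain of the receptor, was at -1.08 on replicate 1 and -1.25 on replicate 2, and both of its probes lay below -1 on each array. Cd79a, its partner chain, was at -0.29 and -1.08, and Blnk, an adaptor downstream of the receptor, at -0.88 and -1.05. The inhibitory receptor genes Cd72 and Cd22 were at -1.19 and -0.93 and at -0.61 and -0.73. All of these lay below 0 on both arrays.

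Genes of early and follicular B cells lay below 0 as well. Vpreb3, expressed in developing B cells, was at -1.14 and -1.52, Fcrla, a B cell Fc receptor-like gene, at -1.01 and -1.44, and Ly6d, an early lineage marker, at -0.76 and -1.24. Cr2, the complement receptor, stood at -0.91 and -0.94, Fcer2a, the low-affinity IgE receptor, at -0.56 and -0.88, and Cxcr5, which guides B cells into follicles, at -0.79 and -1.00. The transcription factor Ebf1 and the surface marker Ms4a1 were closer to 0, at -0.25 and -0.27 and at -0.33 and -0.46.

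Genes of antigen presentation by MHC class II shared this position. Of 7 measured, 6 were below 0 on both arrays, with list medians of -0.24 and -0.74. H2-Oa, a chain of the B cell modulator of peptide loading, was at -0.70 and -1.29, H2-Eb1, a classical class II chain, at -0.49 and -0.99, and Ciita, the transactivator of the class II genes, at -0.61 and -0.73. H2-Aa was the exception, at 0.23 and -0.37. Relative to the median of all named genes the B cell median stood at -0.61 on replicate 1 and -0.76 on replicate 2, and the MHC class II median at -0.26 and -0.58, with either centring. Against 0, the ribosomal centring put the B cell median at -0.91 and 0.13 and the MHC class II median at -0.55 and 0.32. Of the 19 B cell genes, 5 were below 0 on both arrays with either centring, against 2.02 percent of named genes.

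Plasma cell and T cell genes lay nearer to 0. Of 7 plasma cell genes 5 were below 0 on both arrays, among them Jchain, which joins secreted antibody units, at -0.52 and -0.40. Of 21 T cell genes 14 were below 0 on both arrays and 0 were past 1.5-fold on both, with medians of -0.18 and -0.28, or -0.20 and -0.12 relative to all named genes. Cd3e, a chain of the T cell receptor complex, was at -0.35 and -0.70, Cd8b1, a chain of the CD8 co-receptor, at -0.35 and -0.86, and Cd4 at -0.31 and 0.02. Of 16 natural killer and cytotoxic genes, 2 were lower past 1.5-fold on both arrays, and the medians were -0.18 and -0.12.

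Ccl5, a chemokine of cytotoxic T and natural killer cells, was among the 5 named genes of smallest p. It stood at -1.06 on replicate 1 and -1.19 on replicate 2 (mean -1.13, SE 0.16, limma adjusted p = 0.307). Its ratio in 21-day spleen was 0.43 on both arrays, and the difference between the ages missed the threshold (limma adjusted p = 0.0711). With the ribosomal centring it was at -1.37 and -0.14.

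Platelet and megakaryocyte genes lay below 0 on both arrays with either centring. Of 9 measured genes, 8 were below 0 on both, and 7 were so whichever centring was used. The medians were -0.50 and -1.89 with the array median as centre, and -0.81 and -0.84 with the ribosomal centring. Past 1.5-fold on both arrays with either centring were 4 members, against 0.212 percent of named genes.

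Those 4 are parts of the platelet surface and granules. Gp5 and Gp1bb, subunits of the platelet receptor for von Willebrand factor, stood at -1.06 and -1.92 and at -0.75 and -2.11. Pf4 and Ppbp, chemokines stored in platelet granules, stood at -1.07 and -1.69 and at -0.87 and -2.05. Alox12, the platelet lipoxygenase, which is no member of the list, was at -0.93 and -1.85. All 5 genes were lower on replicate 2 than on replicate 1 with the array median as centre. With the ribosomal centring this order was reversed, from Pf4 at -1.38 and -0.63 to Gp1bb at -1.06 and -1.05.

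Other platelet genes varied more. Clec1b, an activating receptor of platelets, was at -0.50 and -3.10, and its probes differed on replicate 2, at -1.68 and -4.52. Itga2b, the platelet integrin chain, was at -0.07 and -1.68, while its partner Itgb3 was at 0.04 and 0.18. Vwf, made by megakaryocytes and endothelium, was at -0.46 and -0.94, where the endothelium list had medians of 0.13 and -0.24.

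Among named genes below 0 on both arrays, those farthest from 0 included genes of fat and liver. Of 12 adipocyte genes, 4 were lower past 1.5-fold on both arrays: Car3, Fabp4, Adipoq and Cidec. Car3, a carbonic anhydrase abundant in fat, stood at -2.53 on replicate 1 and -3.71 on replicate 2 (mean -3.12, SE 0.54, limma adjusted p = 0.524), and both of its probes were below -1.5 on both arrays. Fabp4, a fatty acid carrier, was at -2.37 and -2.15, Adipoq, the adipocyte hormone adiponectin, at -1.62 and -2.89, and Cidec, a lipid droplet protein, at -1.04 and -1.42.

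The remaining adipocyte genes did not share these values. Plin1, the lipid droplet coat protein, was at -0.16 and 0.22, Retn at -0.21 and 0.21, Lep at -0.33 and -0.31 and Pparg at 0.08 and -0.49. The list's medians were -0.30 and -0.40, or -0.31 and -0.24 relative to all named genes. Dissection of fat with the spleen was not tested as a source of these ratios.

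All 17 measured hepatocyte genes were below 0 on both arrays. The medians were -0.81 on replicate 1 and -1.49 on replicate 2, 12 members were lower past 1.5-fold on both arrays and 13 had an unadjusted limma p under 0.05. With the ribosomal centring the medians were -1.12 and -0.43, and 14 of the 17 were below 0 on both arrays with either centring. Only the hepatocyte and platelet lists, of 52 lists with at least 3 measured genes, had medians below 0 on both arrays with either centring.

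Plasma proteins made by the liver were among the lowest members of the list. Alb, serum albumin, was at -1.81 and -2.38 (mean -2.10, SE 0.36, limma adjusted p = 0.524). Apoa2, an apolipoprotein of high-density lipoprotein, was at -1.36 and -2.38 (mean -1.87, SE 0.28, limma adjusted p = 0.307), and its 2 probes were both below -1.2 on replicate 1 and below -2 on replicate 2. Apoa1 was at -1.19 and -2.43, and the fibrinogen chain Fgg at -0.94 and -1.91.

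Liver enzymes lay in the same range. Cyp2e1, a xenobiotic-metabolising P450, was at -1.25 and -2.58, and Tdo2, which starts tryptophan breakdown, at -0.88 and -1.87. Sult2a2, a sulfotransferase that is in none of the lists, stood at -1.41 and -2.50 (mean -1.96, SE 0.28, limma adjusted p = 0.307). Ces1c, Cyp2a5, Cyp2c50, Cyp3a11, Mat1a and Rgn, liver genes outside the list, were lower past 1.5-fold on both arrays with either centring. They were picked because they passed this filter, and liver genes outside the list were not counted, so they add no separate support. Cyp4a12a, another P450 gene outside the list, was at 0.57 and -0.28. Hpx, haemopexin, was the member nearest 0 on replicate 1, at -0.11 and -1.14. Carry-over of liver RNA into the wild type spleen sample was not tested.

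**Figure D2:**
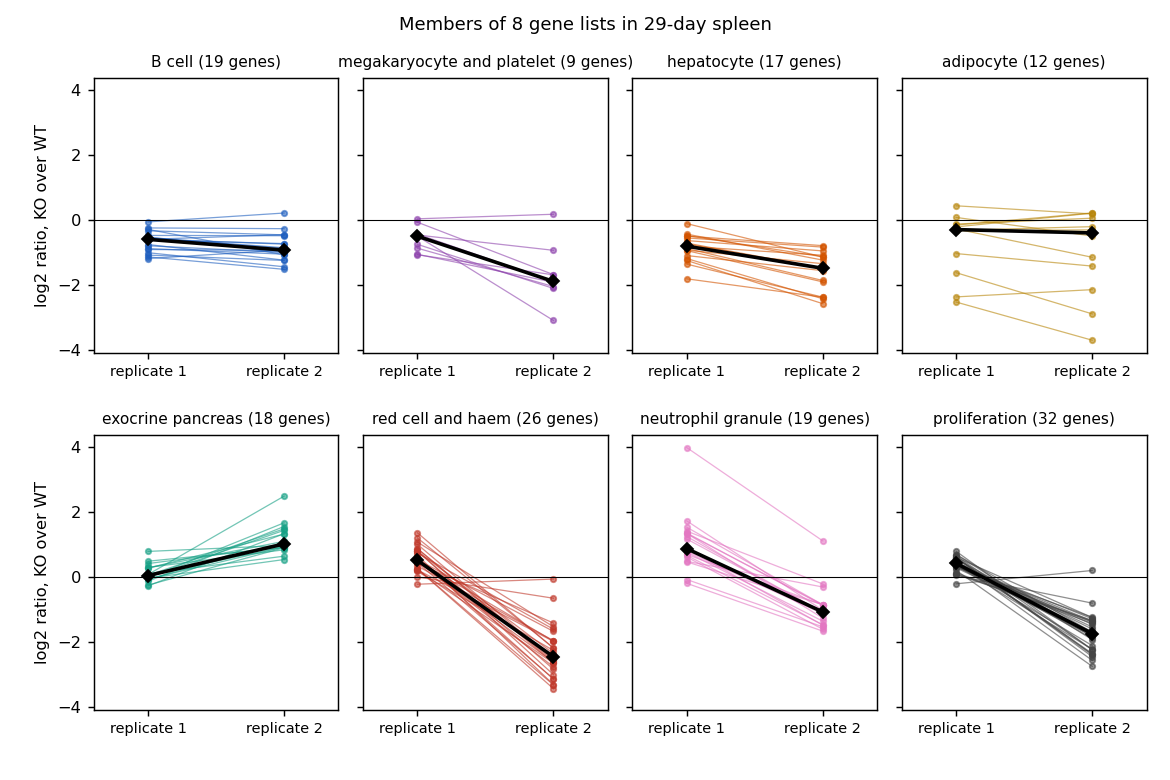
Each panel is 1 gene list, each thin line is 1 gene with its log2 ratio (knockout over wild type) on replicate 1 at left and replicate 2 at right, and the black line joins the list medians. B cell, platelet and hepatocyte lines stay below 0 with the exceptions of Pax5 and Itgb3. Most red cell, neutrophil and proliferation lines cross from above to below 0.

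Genes of lipid synthesis also had medians below 0 on both arrays with the array median as centre. Scd1, the desaturase that makes monounsaturated fatty acids, stood at -1.87 and -1.97 (mean -1.92, SE 0.43). Of 13 lipogenesis genes 8 were below 0 on both arrays, including the fatty acid synthase Fasn at -0.40 and -1.28 and the elongase Elovl6 at -0.41 and -1.22. Of 18 cholesterol synthesis genes 13 were below 0 on both arrays, with Idi1 at -0.58 and -1.66, Hmgcs1 at -0.77 and -1.16 and Msmo1 at -0.64 and -1.09. The medians of these lists were -0.16 and -0.63 for lipogenesis and -0.10 and -0.75 for cholesterol synthesis. Relative to all named genes they were -0.18 and -0.47 for lipogenesis and -0.12 and -0.59 for cholesterol synthesis. Against 0, the ribosomal centring put the lipogenesis median at -0.475 and 0.428 and the cholesterol synthesis median at -0.418 and 0.307. Below 0 on both arrays with either centring were 3 of the 13 lipogenesis genes and 4 of the 18 cholesterol synthesis genes. Pck1, the rate-limiting enzyme of glucose synthesis from smaller molecules, was at -1.38 and -2.60.

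The eosinophil granule genes Epx, eosinophil peroxidase, and Prg2, major basic protein, stood at -1.44 and -2.22 and at -1.40 and -2.55. Both were below -1 on both arrays with either centring. Prg2 had the lower error (SE 0.34, limma adjusted p = 0.667). Igfbp5, an IGF-binding protein, was at -1.14 and -1.32. Kmo, an enzyme of the kynurenine pathway, had the smallest p of the named genes, at -1.25 and -1.15 (mean -1.20, SE 0.16, limma adjusted p = 0.232), and with the ribosomal centring it was at -1.57 and -0.09.

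Ube2h, a ubiquitin-conjugating enzyme, averaged -2.27 and -1.17 over its 3 probes (limma adjusted p = 0.307). The replicate 1 value rests on a single probe at -7.32, while the other probes stood at 0.49 and 0.02 there. On replicate 2 that probe had no value and the others were at -1.49 and -0.84.

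**Figure D3:**
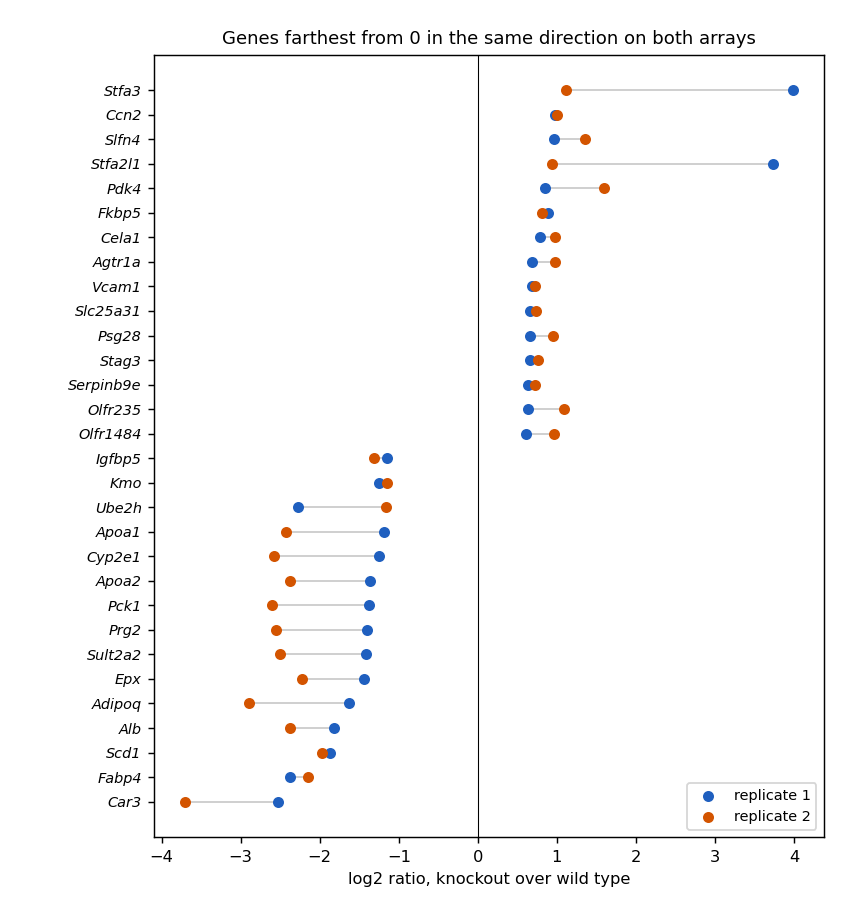
Dots give the log2 ratio (knockout over wild type) on replicate 1 (blue) and replicate 2 (orange) for the 15 named genes farthest from 0 in each direction on both arrays, ranked by the smaller of the 2 sizes. Car3 reaches -3.71 on replicate 2, and Stfa3 and Stfa2l1 reach 3.99 and 3.73 on replicate 1.

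Fewer genes stood above 0 than below 0 on both arrays with the array median as centre. With the ribosomal centring the order was reversed, with 174 features higher and 83 lower past 1.5-fold on both arrays. Stfa3 and Stfa2l1, stefin A genes that neutrophils express and whose family members are close in sequence and may share signal, were at 3.99 and 1.11 and at 3.73 and 0.94. Slfn4, a Schlafen gene of myeloid cells, was at 0.97 and 1.35 (mean 1.16, SE 0.25, limma adjusted p = 0.9996). Ccn2, a matricellular growth factor, was at 0.97 and 1.00. These 4 genes, with Ms4a8a and Olfr1158, were the 6 named genes higher past 1.5-fold on both arrays with either centring (0.041 percent).

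Fasting- and glucocorticoid-responsive genes were among the others. Pdk4, a kinase that holds back glucose oxidation, was at 0.85 and 1.60, and Fkbp5, a chaperone induced by glucocorticoids, at 0.89 and 0.81. Of 17 glucocorticoid-induced genes 10 were above 0 on both arrays, against 15.1 percent of named genes, with medians of 0.60 and 0.12, or 0.59 and 0.28 relative to all named genes. Il1r2, a decoy receptor for interleukin 1, was at 1.38 and 0.39, and Dusp1, a phosphatase of MAP kinases, at 1.03 and 0.07. The metallothioneins Mt1 and Mt2 lay on opposite sides of 0, at 1.61 and -0.69 and at 1.58 and -1.19. Only Pdk4 and Fkbp5 of this list were higher past 1.5-fold on both arrays.

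Vcam1, an adhesion molecule that red pulp macrophages carry, stood at 0.68 and 0.72. Agtr1a, the angiotensin II receptor, was at 0.69 and 0.97, and Cela1, a pancreatic elastase, at 0.79 and 0.97. The rest of the named set were Slc25a31, Psg28, Stag3 and Serpinb9e and the odorant receptor genes Olfr235 and Olfr1484, between 0.61 and 1.09 on both arrays.

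Red cell genes lay on opposite sides of 0. Of 26 measured genes of the red cell and haem list, 25 were above 0 on replicate 1 and below 0 on replicate 2, against 37.8 percent of named genes. The medians were 0.52 and -2.46, and with the ribosomal centring 0.20 and -1.40. Klf1, the master transcription factor of red cell formation, was at 0.45 and -3.13, and Slc4a1, the red cell anion exchanger, at 0.81 and -3.01. Tfrc, the transferrin receptor, was at 1.21 and -2.18, Hba-a1, an alpha globin gene whose near-identical copy may share signal, at 1.36 and -2.19, and Alas2, the first enzyme of haem synthesis in red cells, at 1.08 and -1.53.

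Granulocyte genes were also split around 0 with the array median as centre, with larger values on replicate 1. Of 19 neutrophil granule genes 16 were above 0 on replicate 1 and below 0 on replicate 2, with medians of 0.88 and -1.08. S100a8 and S100a9, the calcium-binding alarmins, were at 1.54 and -0.86 and at 1.34 and -1.27, and the protease Ctsg at 1.73 and -1.02. Camp and Ltf were the 2 members below 0 on both arrays, at -0.19 and -1.67 and at -0.08 and -1.53. Other granule genes, such as Lcn2 and Ngp, were above 0 on replicate 1, at 1.25 and -1.09 and at 0.88 and -1.48. Stfa3, named above and also in this list, was above 0 on both arrays, at 3.99 and 1.11. Relative to all named genes the list's medians were 0.86 and -0.91. Against 0, the ribosomal centring put them at 0.56 and -0.02, so the replicate 2 median lay near 0.

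Macrophage genes stood above 0 on replicate 1. Of 14 red pulp macrophage genes 11 were above and then below 0, with medians of 0.71 and -0.74. Cd5l, an inhibitor of macrophage apoptosis, was at 1.90 and -0.52, and C1qb, a complement subunit, at 1.19 and -1.00. Spic, the transcription factor that red pulp macrophages need, was at 0.64 and -1.10. Relative to all named genes the medians were 0.69 and -0.58, and those of the monocyte and macrophage list 0.62 and -0.33. These lists thus lay on opposite sides of the other genes, a distance that the centring cannot change. Against 0, the ribosomal centring put the red pulp macrophage medians above 0 on both arrays, at 0.395 and 0.316. Those of the monocyte and macrophage list were then also above 0, at 0.326 and 0.569.

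Genes of cell division completed this group. Of 32 proliferation genes 31 were above 0 on replicate 1 and below 0 on replicate 2, with medians of 0.42 and -1.74, and 9 were past 1.5-fold on both sides. Mcm7, part of the replicative helicase, was at 0.62 and -2.45, Ccna2, a cyclin of S phase and mitosis, at 0.59 and -2.38, and Top2a, a topoisomerase of dividing cells, at 0.69 and -1.93. With the ribosomal centring the medians were 0.11 and -0.69. Kif20a, a mitotic kinesin, was the exception at -0.21 and 0.20.

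Single genes of this pattern reached beyond the lists. Rab5b, an endosomal GTPase, was at 1.41 and -6.76 on its single probe, Myrip at 1.37 and -1.59, Tlcd4 at 1.19 and -2.41 and Ypel5 at 1.28 and -1.47. The reverse pattern, ranked among named genes by the smaller of the values on the arrays, was led by Tnfsf10, the death ligand TRAIL, at -0.54 and 0.79. Flt3, a receptor of early progenitors, was also in it at -0.42 and 0.42.

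**Figure D4:**
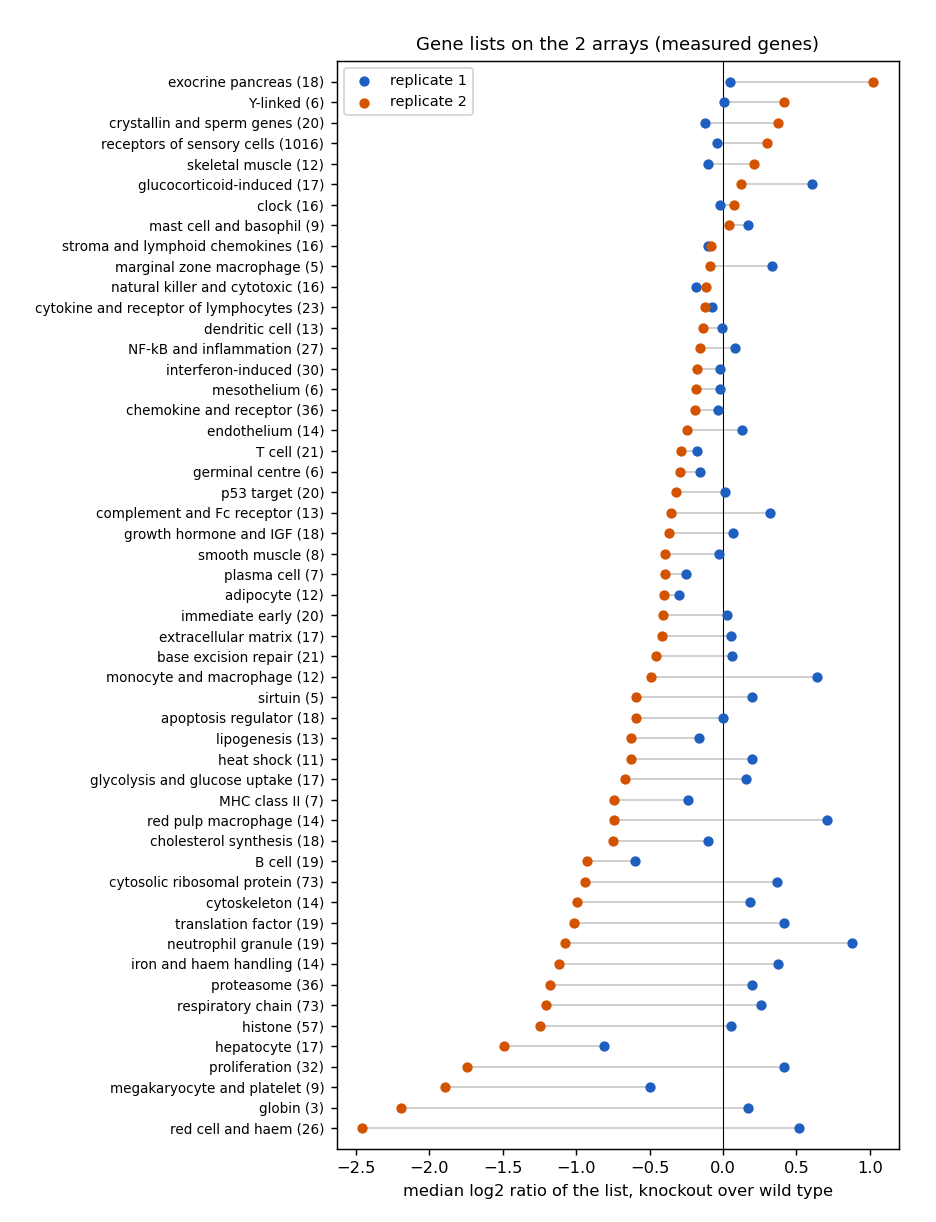
Each line is 1 of the 52 gene lists (number of measured genes in brackets), with the median log2 ratio (knockout over wild type) on replicate 1 in blue and replicate 2 in orange. The red cell list spans from 0.52 to -2.46, whereas the B cell and hepatocyte lists have both medians below 0.

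Across the 52 lists, 25 had a median above 0 on replicate 1 and below 0 on replicate 2, 19 were below 0 on both, 4 above 0 on both and 4 below and then above 0. The 1016 receptors of sensory cells, such as odorant receptors, had medians of -0.04 and 0.30. Interferon-induced genes, with medians of -0.02 and -0.18, and the genes of NF-kB and inflammation, with 0.08 and -0.16, stood near the medians of all named genes. Base excision repair genes, a pathway linked to Sirt6, had medians of 0.06 and -0.45, and p53 target genes 0.01 and -0.32. Glycolysis genes, which Sirt6 is known to hold down, had medians of 0.16 and -0.67, and none of the 17 was past 1.5-fold in 1 direction on both arrays.

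Exocrine pancreas genes differed between the arrays and between the ages. The 18 measured genes had medians of 0.05 on replicate 1 and 1.02 on replicate 2, and every member was above 0 on replicate 2, from 0.54 to 2.49. Pnliprp1, a lipase-related protein of pancreatic juice, was at 0.08 and 2.49, Reg1 at -0.02 and 1.67, and Cpa1, a digestive carboxypeptidase, at 0.06 and 1.49. In 21-day spleen the medians were -0.99 and -0.96. The pancreas touches the spleen, and its share in the samples was not tested.

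Y-linked genes were read as a check of sample make-up. Eif2s3y stood at 0.37 and 3.88, Kdm5d at 0.35 and 1.56, Uty at 0.03 and 0.67 and Usp9y at -0.25 and -3.13 on replicates 1 and 2. The probes of Zfy1 and Zfy2, the rest of the 6 measured genes, lay between -0.30 and 0.29 on both arrays. The labels used here do not give the sex of the mice, and its part in the other ratios was not tested.

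The knockout ratios of spleen were next set against those of the other tissues of the same age. Limma called 0 of 30641 features for 29-day spleen against the mean of liver, skin and thymus (0.0 percent), with 549 at an unadjusted p under 0.05 and a lowest adjusted p of 0.206, and it called 50 without replicate 1 of 29-day spleen. The B cell median was -0.60 and -0.93 in spleen, against 0.77 and -0.05 in thymus, -0.05 and 0.14 in liver and 0.02 and -0.10 in skin. The hepatocyte median was 0.09 and 0.06 in liver, 0.08 and -0.10 in thymus and -0.05 and -0.41 in skin. The platelet median lay between -0.06 and 0.29 on the 6 arrays of these tissues. Other positions were shared with these tissues. Scd1 was at -2.305 and -3.212 in liver, -2.885 and -2.467 in skin and -1.22 and -2.754 in thymus. The cholesterol synthesis median was -1.082 and -1.148 in liver, -0.32 and -0.341 in skin and -0.495 and -0.273 in thymus. Glucocorticoid-induced genes had medians of 0.261 and 0.343 in liver, 1.009 and 0.654 in skin and 0.703 and 0.269 in thymus.

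Spleen at 29 days was also compared with spleen at 21 days, which had other wild type RNA. Limma called 20 of 23086 features (0.0866 percent), of which 19 were higher at 29 days, 12 were probes with no gene name and 8 were named genes. The pancreatic enzymes Try4 and Ctrb1 were among them. Try4, a trypsin, was at 0.42 and 0.95 at 29 days and at -2.52 and -2.07 at 21 days, a difference of 2.98 (SE 0.31, limma adjusted p = 0.035). Ctrb1, a chymotrypsinogen, was at 0.49 and 0.91 and at -2.05 and -1.82, a difference of 2.63 (SE 0.27, limma adjusted p = 0.0253).

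The count of calls between the ages varied with the arrays fitted and with the centring. It was 0 without any single array of 29-day liver, skin or thymus, which enter only the spread estimate, and 0 with the ribosomal centring. With a lone array on 1 side, assumed to vary like the other groups, it was 4 without replicate 2 of 29-day spleen and 940 and 2593 without replicate 6 or 11 of 21-day spleen. With the array median as centre, hepatocyte medians were below 0 in both ages, at -0.72 on replicate 6 and -0.71 on replicate 11 at 21 days. Replicate 6 lacked 10155 values and held 13 of the 17 hepatocyte genes. The genes used for the ribosomal centring had medians of -0.79 on replicate 6 and -0.09 on replicate 11. On replicate 6 the hepatocyte median thus lay close to theirs, and its position below 0 depends on the centring. B cell genes had 21-day medians of -0.77 and 0.08, and platelet genes -0.72 and 0.34. Red cell genes were below 0 on both 21-day arrays, at -1.18 and -1.93, where replicate 1 of 29-day spleen was above 0.

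**Figure D5:**
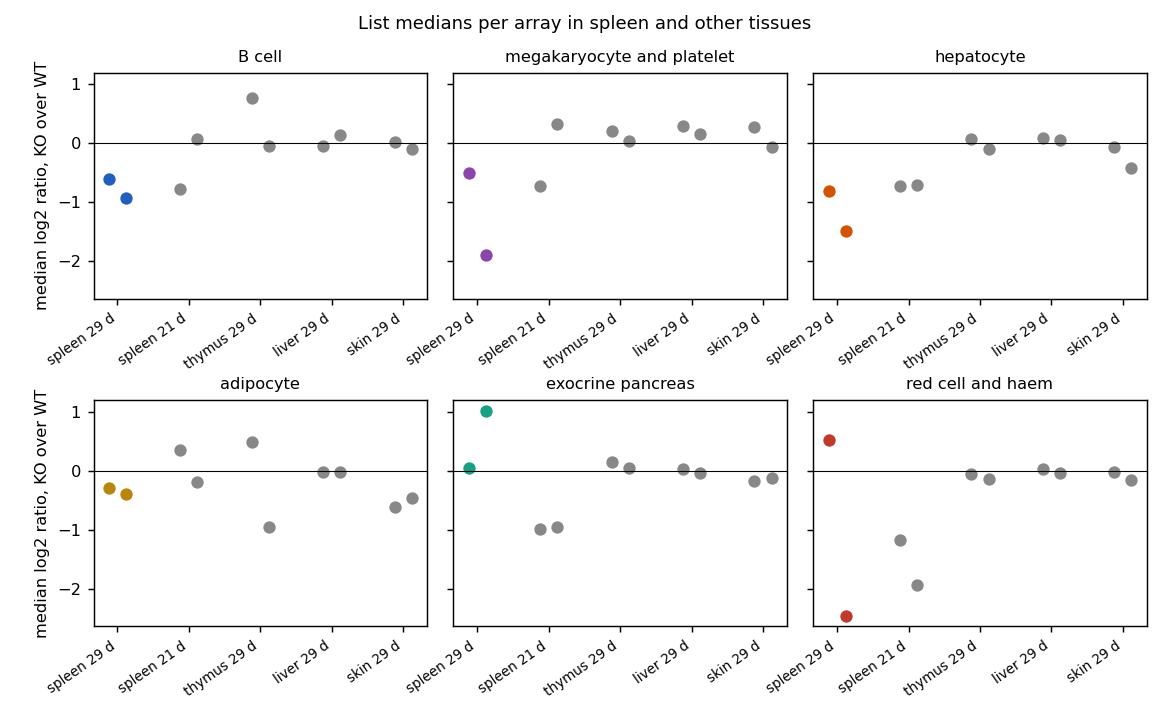
Each panel is 1 gene list, and each dot is its median log2 ratio (knockout over wild type) on 1 array, with 29-day spleen in colour and the other groups in grey, 2 arrays a group. The hepatocyte medians are below -0.7 on all 4 spleen arrays, and the pancreas medians are near -1 at 21 days and at 0.05 and 1.02 at 29 days.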

How the data were processed

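The log2 ratios used here came from a single table deposited by the authors, with 38784 probes on 12 arrays. Their base was inferred from the range of values, their direction (knockout over wild type) from the dyes in the labels, and the sources used here give no normalization. The 29-day spleen arrays lacked 358 and 484 values and had medians of -0.03 and 0.19. Probes were named through GEO's platform annotation, which gave 1 gene symbol to 22204 and none to 16580. Each array was centred on its median, and the probes of a gene were averaged.

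All 12 arrays were fitted together with a mean for each group (30871 features, lmFit and eBayes of limma 3.58.1, R 4.3.3). P-values are two-sided and were adjusted over all features tested by the Benjamini-Hochberg method. The spread between wild type mice is left out, and the number of arrays limits the precision. Steps were tested on simulated data.

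The members, gene lists and rules were chosen with earlier results of these data known. Named genes were Sirt6, up to 15 each way of largest smaller size on both arrays, the 5 of smallest p, up to 8 of each opposite pattern, up to 6 each way per contrast, and list members. Genes past 1.5-fold with either centring (Alox12, Ms4a8a, Olfr1158 and the liver genes) were added after their values were seen.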

Additional observations from a re-analysis of the deposited data

Results flagged for a closer look

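A difference between the knockout ratios of 29-day and 21-day spleen that passed the limma test was found for 20 features. Besides Try4 (2.98) and Ctrb1 (2.63), the named genes of largest difference, 29 minus 21 days, were Vmn1r183, a vomeronasal receptor gene (4.22, limma adjusted p = 0.0253), Isl1 (4.07, limma adjusted p = 0.0461), Cyp4a12a (2.95, limma adjusted p = 0.0461), Nr2e1 (2.07, limma adjusted p = 0.0461) and Hrc (-2.45, limma adjusted p = 0.0361). In 29-day spleen Vmn1r183 stood at 0.67 and -0.54, Isl1 at 0.26 and 0.48, Cyp4a12a at 0.57 and -0.28, Nr2e1 at 0.01 and 0.32 and Hrc at 0.03 and 0.36. The 21-day values were -4.11 and -4.21 for Vmn1r183, -4.59 and -2.82 for Isl1, -3.00 and -2.61 for Cyp4a12a, -2.20 and -1.62 for Nr2e1 and 3.08 and 2.21 for Hrc, so these differences lie mostly in the 21-day arrays.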

How the results depend on the processing

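Calls in 29-day spleen numbered 0 with a replicate block (lowest limma adjusted p 0.177), 1 with no centring, 12 with quantile normalization, 1 at an adjusted p of 0.1 and 2 without either 21-day spleen array, which was added after seeing the data. Leaving out a 29-day spleen array gave 0 to 316; 316 was without replicate 1, when the lone replicate 2 is assumed to vary like the other groups. Against the other tissues the count was 2 with scaled arrays, 14 with quantile normalization and 0 to 50 leaving out 1 array. For 29 minus 21 days it was 0 with the ribosomal centring, quantile normalization, array quality weights, the replicate block or a minimum change of 0.58, 2 with scaled arrays or complete features, 45 at an adjusted p of 0.1 and 0 to 2593 leaving out 1 array (0 without each 29-day liver, skin or thymus array, added after seeing the data; a lone spleen array is assumed to vary like the other groups), and the 29-day arrays alone cannot give it. Deviations of same-numbered arrays correlated at 0.41 for liver and spleen, 0.22 for skin and spleen and -0.21 for spleen and thymus. They correlated at 0.004 for liver and skin, -0.01 for liver and thymus and 0.03 for skin and thymus. The numbers were not taken as pairs, and whether they mark the same animals cannot be told from the labels. Features higher past 1.5-fold on both arrays numbered 112 with no centring, 174 with the ribosomal centring, 93 with quantile normalization and 5 past 2-fold. Those lower numbered 83 with the ribosomal centring, 306 with scaled arrays and 43 past 2-fold, and those above and then below 0 numbered 45, 1315 and 56. The B cell median over both arrays (-0.72) was -0.34 with the ribosomal centring, a constant shift of all genes, and -1.01 with quantile normalization. The causes were not tested. Depth is unknown, since the table holds no signal over background.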
